A study of Mus musculus with 16 samples.

Results

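Lipoprotein receptors and lipid uptake genes were followed in p53-/-; Myc hepatoblasts treated with sorafenib or its vehicle. The group holds 10 genes, chosen by symbol from the 40840 genes of the count table: the receptors Vldlr, Lrp8 and Lrp1, the receptor chaperone Lrpap1, the scavenger receptors Scarb1 and Cd36, the lipases Lpl, Lipg and Lipa, and the lipase anchor Gpihbp1. Of these, 9 had enough reads to be tested. Gpihbp1 had 0 counts in each of the 16 libraries, where 3 counts, a level at which a gene cannot be told from stray reads, correspond to 2.44 to 4.54 normalized counts.

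Cells take up lipid from lipoproteins in several ways. Receptors of the LDL receptor family bind whole particles and carry them to lysosomes, where acid lipase (Lipa) frees cholesterol and fatty acids. Lipases at the cell surface (Lpl, Lipg) split triglycerides or phospholipids of the particle outside the cell, and membrane proteins such as Cd36 help the released fatty acids in, while Scarb1 takes cholesterol esters from HDL without taking up the particle.

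The cells are a mouse liver progenitor line that lacks p53 and overexpresses Myc, and every group shares this background. They received sorafenib, a kinase inhibitor given for liver cancer, at 8.5 µM, or DMSO as vehicle, and were collected after 48 hours or after 7 days, which gives 4 groups of 4 libraries. The study asked how the drug changes metabolism and mitochondrial function in these cells. All samples come from 1 cell line, and the labels do not say whether replicates were separate cultures, so p-values measure the spread between these samples, which may be technical.

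Polyadenylated RNA was sequenced as stranded libraries, and total counts ranged from 16586254 to 30828427 per library. The labels call the cells HCC and hepatoblasts, but of the defining liver genes Hnf4a had 0 counts in all 16 libraries and Alb had 0 or 1. Dlk1 carried most of the summed level of 9 hepatoblast markers, which ran from 32300 to 33800 normalized counts with DMSO and from 11400 to 13200 with sorafenib at 48 hours, and from 17300 to 19200 and from 5930 to 6130 at 7 days. The list did not move as 1, since of its 7 tested genes 4 were lower and 2 higher at 48 hours and 5 lower and 2 higher at 7 days, and the 2 higher genes were Sox9 (1.64 and 1.37 on the log2 scale) and Foxa2 (1.77 and 0.84). The summed level of 5 stellate cell and fibroblast markers, mostly Col1a1 and Acta2 with Lrat at 0, went from 46600 to 49700 up to 133000 to 155000 at 48 hours, and from 66100 to 67900 up to 114000 to 119000 at 7 days. Pdgfrb in the same list was lower at both times (-0.76 and -0.61), and at 48 hours had -0.635 without sorafenib 48 hours replicate 2. Des was lower at 7 days (-1.14), so that 2 of the list's 4 tested genes were higher and 2 lower at 7 days, with a median of -0.15. Of 5 endothelial markers Kdr carried most, and their sum was 55.7 to 100 with DMSO and 119 to 151 with sorafenib at 48 hours, and 38.9 to 63 and 196 to 228 at 7 days. Kdr was the only endothelial gene called higher, while Tek was lower at both times (-1.50 at 48 hours) and Emcn at 7 days (-4.01). Emcn stood at 1.9 normalized counts with DMSO and 0 with sorafenib at 7 days, a level that cannot be told from stray reads. Of 5 macrophage markers Adgre1 and Marco were at 0, with sums of 41.5 to 57.3, 16.6 to 30.9, 78.9 to 100 and 28.5 to 39.8 in the same order, and 5 adipocyte markers summed to at most 4.89. The part of these shifts in the results below was not tested, and in bulk RNA fewer cells of a type cannot be told apart from less RNA per cell. In sorafenib for 48 hours replicate 2, genes on chromosomes 15 to 19 stood at 0.606 times their expected level relative to chromosomes 1 to 13, whereas in the 12 libraries of the other groups this step lay between -0.00434 and 0.00798 on the log2 scale. Vldlr and Lipa (chromosome 19), Lipg (chromosome 18) and Gpihbp1 (chromosome 15) lie in that stretch. For Vldlr, Lipg and Lipa the mean with sorafenib at 48 hours and the comparisons that use this library are therefore also given without it. Chromosome X was not part of this check and holds no member. Lamp2 and Acsl4, which lie on X, had SDs of 1800 and 650 normalized counts with sorafenib at 48 hours. With DMSO at 48 hours their SDs were 87.2 and 124. Counts also differed between DMSO replicates, with a chi-square per gene of 53.1 to 71.6 between DMSO 7 days replicate 4 and its group and of 18.7 to 42.7 between replicates 1 and 4 and replicates 2 and 3 of DMSO 48 hours, but 10 genes carried 81.4 to 95.8% of those sums. Leaving out DMSO 7 days replicate 4 changed 1 call under sorafenib among the members, that of Lipa at 7 days.

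Sorafenib raised Vldlr, Lrp8, Lrp1 and Lpl at both time points and lowered Scarb1 at both, while Lipg and Cd36 fell at 7 days. Lipa was also called higher at both, by small margins that several refits lost. Without sorafenib 48 hours replicate 2, described above, its changes were 0.42 (edgeR adjusted p = 1.82e-12) and 0.24 (edgeR adjusted p = 1.58e-06). Lrpap1 did not pass the test at either time, though it did in some refits. Genes were called changed at an adjusted p (Benjamini-Hochberg, edgeR quasi-likelihood test over 20444 genes) under 0.05. At 48 hours 6 of the 9 tested members were called, 5 higher and 1 lower, in a comparison where 54.6% of all genes were called, 26.9% higher and 27.7% lower. At 7 days 8 were called, 5 higher and 3 lower, against 56.8% of all genes, 28.9% higher and 27.9% lower. The shares of members, 66.7% and 88.9%, thus stood beside a background in which more than every other gene was called. That background includes scarce genes. Among the 12158 genes with at least 10 counts in every sample, 9196 were called at 48 hours and 9146 at 7 days. Of the 8 members tested there, 6 and 7 were called. The median absolute log2 fold change of the members was 0.68 at 48 hours against 0.50 for all genes, and 1.14 at 7 days against 0.50. DMSO and sorafenib libraries did not overlap for 5 members at 48 hours, with 48.0% of all genes in that state, and for 8 members at 7 days, with 56.8%.

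**Figure D1:**
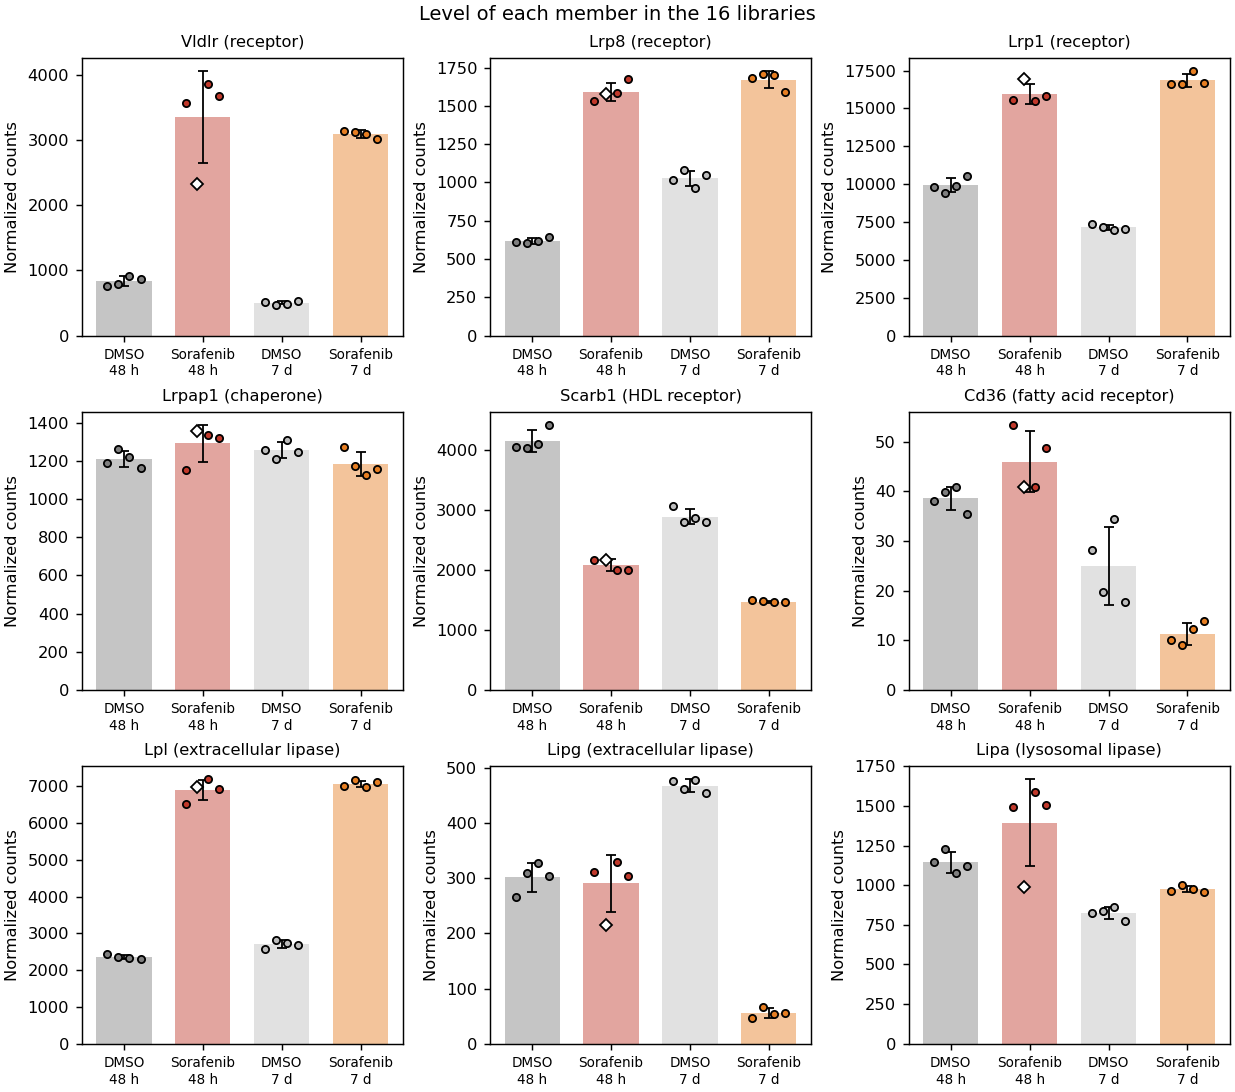
Normalized counts of the 9 detected members in each of the 16 libraries, 1 panel per gene on linear axes from 0, with bars at the group mean, error bars for the SD (n = 4) and a diamond for sorafenib 48 hours replicate 2. Vldlr rose from 836.5 to 3352 at 48 hours and Lipg fell from 467.8 to 55.77 at 7 days, while the 4 groups of Lrpap1 lie within 1130 to 1359.

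Vldlr and Lrp8 are close relatives of the LDL receptor that also bind reelin, and Lrp1 is a large endocytic receptor with many ligands, including remnant particles. For each, 1 promoter window, from 250 bases before to 50 bases after an annotated start, is shown because these 3 receptors rose at both time points. The sequences are from RefSeq (GRCm38.p6), a build other than the GRCm39 used for the counts. The table held 9 windows for 6 members, namely Lrp8, Vldlr, Cd36, Lrpap1, Lrp1 and Lipa. Vldlr had 2 windows and Lrp8 had 3, for different annotated starts. The Vldlr window shown is the one that held a match, and its other window (chr19:27216234-27216533) held 0. The Lrp8 windows that are not shown also held 0. Lpl, Scarb1, Lipg and Gpihbp1 were not in it. The windows of Vldlr (chr19:27216770-27217069, plus strand), Lrp8 (chr4:107802635-107802934, plus strand) and Lrp1 (chr10:127621099-127621398, minus strand) read, 5′ to 3′, with the only match to 7 motifs in capitals:
Vldlr: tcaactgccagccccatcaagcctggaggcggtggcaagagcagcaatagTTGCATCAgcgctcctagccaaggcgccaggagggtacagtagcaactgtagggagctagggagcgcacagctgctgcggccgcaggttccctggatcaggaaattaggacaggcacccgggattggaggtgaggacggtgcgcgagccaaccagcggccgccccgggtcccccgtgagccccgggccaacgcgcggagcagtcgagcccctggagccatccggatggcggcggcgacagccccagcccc
Lrp8: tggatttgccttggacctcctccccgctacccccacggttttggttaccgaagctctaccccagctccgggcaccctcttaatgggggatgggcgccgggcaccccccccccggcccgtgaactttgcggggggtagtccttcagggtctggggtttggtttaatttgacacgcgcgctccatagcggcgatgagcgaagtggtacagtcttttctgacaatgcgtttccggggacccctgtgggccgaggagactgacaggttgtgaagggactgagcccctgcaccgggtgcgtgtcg
Lrp1: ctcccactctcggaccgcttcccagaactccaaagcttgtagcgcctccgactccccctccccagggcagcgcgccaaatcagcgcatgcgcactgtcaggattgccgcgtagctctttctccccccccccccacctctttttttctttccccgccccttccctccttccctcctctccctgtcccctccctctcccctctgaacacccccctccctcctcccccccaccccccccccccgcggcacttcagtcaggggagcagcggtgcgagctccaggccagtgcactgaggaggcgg
The capitals mark the ATF4 and CHOP element TGATGNAA, found on the opposite strand as TTGCATCA 200 bases before the start. It occurs in 3.97% of all 32851 windows of this length, on either strand, and in 1 of the 9 windows of members. The sterol regulatory element TCACNCCAC (1.24% of windows), the E-box CACGTG (7.15%), TCACGTG, which contains that E-box (3.77%), the AP-1 site TGANTCA (7.81%), the direct repeat 1 of nuclear receptors (0.0396%) and the ER stress element (0.119%) had no match in the members' windows. A match describes letters and shows no binding.

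Vldlr, the VLDL receptor, has its gene at chr19:27193862-27231631 on the plus strand (GRCm39). At 48 hours it stood at 757.5, 797.3, 916.8 and 874.5 normalized counts in the DMSO libraries and at 3571, 2317, 3850 and 3671 in the sorafenib libraries. Every sorafenib library was above every DMSO library, and the lowest, replicate 2, is the library with lowered counts on this chromosome. The difference was 2.01 ± 0.11 (SE) on the log2 scale, 4.01-fold (edgeR adjusted p = 2.96e-12), and without that library 2.15 ± 0.04 (edgeR adjusted p = 2.31e-41), with a sorafenib mean of 3697 ± 141 (SD, n = 3) in place of 3352 ± 700 (n = 4). At 7 days the DMSO libraries held 515.7, 475.4, 489.4 and 525 normalized counts and the sorafenib libraries 3142, 3123, 3089 and 3014. These groups were far apart and tight, with an increase of 2.63 ± 0.11, 6.17-fold (edgeR adjusted p = 7.65e-14). With sorafenib 48 hours replicate 2 left out of the fit the increase was 2.63 ± 0.04 (edgeR adjusted p = 8.94e-45). The study named Vldlr from these same samples, so its direction is not independent evidence.

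Lrp8, a receptor best known from neurons, lies at chr4:107659066-107734038 on the plus strand. At 48 hours the DMSO libraries had 609, 602.1, 617.7 and 642.9 normalized counts and the sorafenib libraries 1535, 1577, 1582 and 1673. At 7 days the DMSO libraries had 1017, 1080, 965.9 and 1046 and the sorafenib libraries 1683, 1708, 1702 and 1588. The sorafenib libraries were alike at both times, and the DMSO libraries were higher at 7 days than at 48 hours. Accordingly the increase was 1.37 ± 0.04 (2.58-fold, edgeR adjusted p = 7.61e-16) at 48 hours and 0.70 ± 0.04 (1.63-fold, edgeR adjusted p = 1.21e-11) at 7 days.

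Lrp1 (chr10:127374012-127457017, minus strand) had the most counts of the 10 genes. The 48-hour DMSO libraries held 9845, 9447, 9876 and 10540 normalized counts and the sorafenib libraries 15550, 16930, 15460 and 15830. At 7 days they held 7385, 7177, 6992 and 7050 with DMSO, and 16610, 16640, 17450 and 16680 with sorafenib. The groups did not overlap at either time, and the DMSO level was lower at 7 days. Lrp1 rose by 0.68 ± 0.04 on the log2 scale at 48 hours (1.61-fold, edgeR adjusted p = 1.89e-12) and by 1.24 ± 0.04 at 7 days (2.36-fold, edgeR adjusted p = 1.64e-16).

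Lrpap1 encodes RAP, a chaperone of the endoplasmic reticulum that keeps receptors of this family from binding ligand too early, and lies at chr5:35248837-35263892 on the minus strand. Its levels were 1190, 1263, 1222 and 1166 normalized counts with DMSO and 1152, 1359, 1339 and 1322 with sorafenib at 48 hours. At 7 days they were 1260, 1214, 1313 and 1246 with DMSO and 1277, 1176, 1130 and 1157 with sorafenib. The groups overlapped at both times. The log2 difference was 0.10 at 48 hours (95% interval -0.01 to 0.21, edgeR adjusted p = 0.122) and -0.09 at 7 days (-0.19 to 0.02, edgeR adjusted p = 0.152). Without sorafenib 48 hours replicate 1, the lowest of its group, the 48-hour difference of 0.11 passed (edgeR adjusted p = 0.0373). It also passed at 48 hours with no filter beyond 1 count (0.14, edgeR adjusted p = 0.0279), and at 7 days in a fit of the 8 libraries of that time (-0.10, edgeR adjusted p = 0.0197). So the chaperone stayed within a narrow range while the 3 receptors above changed by 1.61-fold or more.

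Scarb1 fell at both time points and Cd36 at 7 days. Scarb1 (chr5:125353547-125418176, minus strand), the HDL receptor, stood at 4057, 4031, 4097 and 4412 normalized counts with DMSO and at 2169, 2164, 2006 and 1997 with sorafenib at 48 hours. At 7 days it stood at 3063, 2799, 2874 and 2804 with DMSO and at 1493, 1472, 1460 and 1458 with sorafenib. No sorafenib library reached a DMSO library of its time. Scarb1 fell by 1.00 ± 0.04 on the log2 scale at 48 hours (1.99-fold lower, edgeR adjusted p = 2.99e-14) and by 0.97 ± 0.04 at 7 days (1.96-fold lower, edgeR adjusted p = 4.88e-14).

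Cd36, a fatty acid and oxidized LDL receptor (chr5:17986432-18094067, minus strand), was rare, at 9 to 46 raw counts per library, so its values carry more counting error. At 48 hours it had 38.12, 39.91, 40.84 and 35.43 normalized counts with DMSO and 53.32, 40.83, 40.93 and 48.84 with sorafenib, a log2 difference of 0.25 ± 0.18 that did not pass (edgeR adjusted p = 0.253). The sorafenib libraries began where the DMSO libraries ended, with an overlap of 1 pair. At 7 days the values were 28.11, 19.7, 34.53 and 17.62 with DMSO and 10.12, 8.934, 12.24 and 13.77 with sorafenib. Here the groups were apart, and Cd36 fell by 1.14 ± 0.24 on the log2 scale (2.22-fold lower, edgeR adjusted p = 0.000353).

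The 3 lipases of the group took different courses. Lpl, lipoprotein lipase (chr8:69284603-69360100, plus strand), had 2452, 2356, 2346 and 2295 normalized counts with DMSO and 6523, 6983, 7192 and 6932 with sorafenib at 48 hours. At 7 days it had 2574, 2828, 2752 and 2691 with DMSO and 7019, 7173, 6993 and 7114 with sorafenib. All 8 sorafenib libraries stood above all 8 DMSO libraries. Lpl rose by 1.55 ± 0.04 on the log2 scale at 48 hours (2.92-fold, edgeR adjusted p = 5.17e-18) and by 1.38 ± 0.04 at 7 days (2.61-fold, edgeR adjusted p = 2.16e-17). Gpihbp1, which carries Lpl across and along capillary endothelium, was listed at 0 throughout, and the endothelial gene Cdh5 had at most 2 counts in any library.

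Lipg, endothelial lipase, which favours HDL phospholipids, maps to chr18:75072393-75094339 on the minus strand. At 48 hours it had 265.9, 308.8, 327.7 and 305 normalized counts with DMSO and 311.5, 216.2, 330.3 and 304.4 with sorafenib. The 216.2 is replicate 2, and the other 3 sorafenib libraries lay among the DMSO libraries or just above them. The difference at 48 hours was -0.04 ± 0.10 (edgeR adjusted p = 0.765), and 0.07 (edgeR adjusted p = 0.499) without replicate 2. The sorafenib mean was then 315.4 ± 13.4 (SD, n = 3) in place of 290.6 ± 50.8 (n = 4). At 7 days the DMSO libraries had 475.7, 461.7, 479.1 and 454.5 and the sorafenib libraries 47.24, 67.41, 53.35 and 55.09. Lipg thus fell by 3.05 ± 0.12 on the log2 scale at 7 days, 8.39-fold (edgeR adjusted p = 1.35e-14), the largest change of any member in either comparison of sorafenib with DMSO. With sorafenib 48 hours replicate 2 left out of the fit the change was -3.05 ± 0.09 (edgeR adjusted p = 1.02e-32).

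Lipa, lysosomal acid lipase (chr19:34469712-34522163, minus strand), had 1149, 1228, 1074 and 1123 normalized counts with DMSO and 1493, 988.9, 1588 and 1505 with sorafenib at 48 hours. Replicate 2 fell below the whole DMSO group, whereas the other 3 lay above it. With all libraries the difference was 0.29 ± 0.09 (edgeR adjusted p = 0.0124, exact permutation p = 0.143), and without replicate 2 it was 0.42 ± 0.04 (edgeR adjusted p = 1.82e-12). The sorafenib mean was then 1529 ± 51.7 (SD, n = 3) in place of 1394 ± 273 (n = 4). At 7 days the DMSO libraries had 821.7, 836.1, 862.3 and 771.7 and the sorafenib libraries 961.7, 999.8, 977 and 957.2, with no overlap. The rise of 0.24 ± 0.10, 1.18-fold, was the smallest of the members' called changes under sorafenib and close to the threshold (edgeR adjusted p = 0.0379). Leaving out DMSO 48 hours replicate 3 or 4 or sorafenib 48 hours replicate 1, 3 or 4 took the 48-hour call away, with log2 differences from 0.19 to 0.25, and the 7-day call was lost, at 0.21 to 0.25, when DMSO 48 hours replicate 1, 3 or 4, DMSO 7 days replicate 1, 2 or 4, or any 1 of the 4 sorafenib 7-day libraries was left out. The 48-hour call was also lost in a fit of its 8 libraries (0.27, edgeR adjusted p = 0.125) and the 7-day call with a replicate block (0.24, edgeR adjusted p = 0.0645). All of these refits kept replicate 2 of sorafenib 48 hours. Without that library the 7-day change was 0.24 ± 0.04 (edgeR adjusted p = 1.58e-06).

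**Figure D2:**
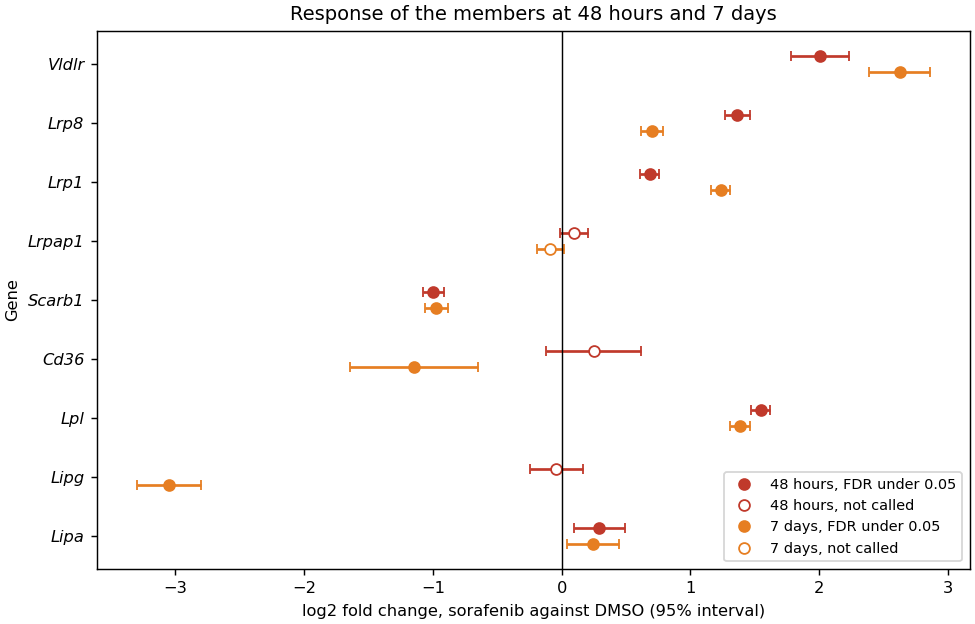
Log2 fold change of sorafenib against DMSO for the 9 tested members at 48 hours and 7 days, with 95% intervals and open symbols for changes that were not called. Vldlr reaches 2.01 and 2.63, Lipg moves from -0.04 to -3.05, and Scarb1 lies at -0.97 at 7 days, close to its value at 48 hours.

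The response at 7 days differed from that at 48 hours for 6 of the 9 members, in a test of the difference itself that called 36.8% of all genes, 15.5% with a higher and 21.3% with a lower response at 7 days. With at least 10 counts in every sample it called 4 of 8 members and 6827 of 12158 genes. By total counts alone, 55.6% of the called genes had the higher response at 7 days, against 42.1% as reported. Vldlr (0.62 ± 0.16, edgeR adjusted p = 0.00332) and Lrp1 (0.55 ± 0.05, edgeR adjusted p = 3.63e-08) had the higher response at 7 days. Without sorafenib 48 hours replicate 2 the value for Vldlr was 0.48 (edgeR adjusted p = 1.75e-09). The response of Lrp8 was lower at 7 days by -0.66 ± 0.06 (edgeR adjusted p = 3.19e-08), that of Cd36 by -1.39 ± 0.30 (edgeR adjusted p = 0.000855) and that of Lipg by -3.01 ± 0.16 (edgeR adjusted p = 9.22e-12). For Lipg the value without sorafenib 48 hours replicate 2 was -3.11 (edgeR adjusted p = 1.62e-26). Lpl differed by -0.17 ± 0.05 (edgeR adjusted p = 0.0131), a difference that was lost when DMSO 48 hours replicate 3 or 4 or sorafenib 48 hours replicate 3 or 4 was left out (-0.13 to -0.12) and by total counts alone (-0.07) or with at least 10 counts in every sample (-0.10). Scarb1 had 0.02 (95% interval -0.10 to 0.14, edgeR adjusted p = 0.801). Lipa had -0.05 (edgeR adjusted p = 0.822), and -0.18 without sorafenib 48 hours replicate 2 (edgeR adjusted p = 0.0129). Lrpap1 had -0.18 (edgeR adjusted p = 0.0525), and passed without DMSO 48 hours replicate 2, DMSO 7 days replicate 2, sorafenib 7 days replicate 1 or sorafenib 48 hours replicate 1 or 2, at -0.22 to -0.17, and with no filter beyond 1 count (-0.20, edgeR adjusted p = 0.0303).

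The DMSO libraries themselves changed with time in culture. Between 48 hours and 7 days of DMSO 8 of the 9 members were called, 3 higher and 5 lower, where 49.4% of all genes were, 23.9% higher and 25.5% lower. The same number, 8, had no overlap between the times, as had 50.8% of all genes. With at least 10 counts in every sample 7 of 8 members and 8635 of 12158 genes were called. Lrp8 rose by 0.73 on the log2 scale (1.66-fold, edgeR adjusted p = 3.62e-11), Lipg by 0.63 (1.55-fold, edgeR adjusted p = 8.68e-06) and Lpl by 0.20 (edgeR adjusted p = 9.88e-05). Vldlr (-0.74), Cd36 (-0.62), Scarb1 (-0.52), Lrp1 (-0.47) and Lipa (-0.47) fell, with edgeR adjusted p-values between 9.65e-10 for Scarb1 and 0.00881 for Cd36. So the fall of Lipg at 7 days was from a DMSO level above that at 48 hours, and the smaller increase of Lrp8 was over a DMSO level above that at 48 hours.

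In the sorafenib libraries 4 members were called changed between the time points, all 4 lower in the fit reported here, where 39.7% of all genes were called and 22.3% were lower. There was no overlap between the times for 3 members and for 35.8% of all genes. Lipg (-2.38, 5.21-fold lower, edgeR adjusted p = 1.01e-11), Cd36 (-2.02, 4.08-fold lower, edgeR adjusted p = 3.79e-07), Lipa (-0.52, edgeR adjusted p = 0.000156) and Scarb1 (-0.50, edgeR adjusted p = 7.03e-09) fell. Vldlr (-0.12), Lrp1 (0.08), Lrp8 (0.07), Lpl (0.03) and Lrpap1 (-0.13) did not pass, and these calls turned on the method and on single libraries. With at least 10 counts in every sample 6 of 8 tested members were called, 3 higher and 3 lower, beside 7168 of 12158 genes. With DESeq2 6 members were called, of which 2 were higher, beside 8079 of 20444 genes. DESeq2's size factors, total counts alone and the 8 sorafenib libraries gave 5 each, with 1 higher, and no filter beyond 1 count gave 5, all lower. Of all genes 8138, 7982, 7269 and 7799 were called, in that order, of 20444, 20444, 18339 and 27313 tested. Lrp1 passed in 5 of these fits (0.11 to 0.13), Lrp8 with DESeq2 (0.10) and with at least 10 counts in every sample (0.12), Lpl with the latter (0.09), and Lrpap1 with no filter beyond 1 count (-0.13). Without sorafenib 48 hours replicate 2, Vldlr had -0.26 (edgeR adjusted p = 1.86e-08), Lrp1 0.11 (edgeR adjusted p = 0.0013) and Lrpap1 -0.11 (edgeR adjusted p = 0.0387), so that 7 members were called, 1 higher and 6 lower. Beside them 9047 of 20353 genes were called, 3953 higher and 5094 lower. In that fit Lipg had -2.48 (edgeR adjusted p = 1.15e-25) and Lipa -0.65 (edgeR adjusted p = 3.18e-18). Lrp1 also passed without DMSO 48 hours replicate 1, 3 or 4 (0.10 each), Lrp8 without sorafenib 48 hours replicate 4 (0.12), and Lrpap1 without sorafenib 48 hours replicate 1 (-0.15) or sorafenib 7 days replicate 1 (-0.17).

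Divided by the length of each gene's main transcript, the members could be ordered by level. With DMSO for 48 hours the order was Scarb1 at 1630 ± 69.9 (SD, n = 4) normalized counts per kilobase, Lrp1 at 666 ± 30.3, Lpl at 574 ± 15.9, Lrpap1 at 404 ± 14.1, Lipa at 384 ± 21.7, Vldlr at 102 ± 8.78, Lipg at 79.6 ± 6.85, Lrp8 at 77.8 ± 2.25 and Cd36 at 11 ± 0.68. Neighbours in this order did not overlap between libraries, except Lrpap1 with Lipa and Lipg with Lrp8. With sorafenib for 7 days Lpl led at 1720 ± 20.3, followed by Lrp1 at 1130 ± 27.3, Scarb1 at 579 ± 6.3, Lrpap1 at 396 ± 21.4, Vldlr at 376 ± 6.83, Lipa at 327 ± 6.45, Lrp8 at 210 ± 7.05, Lipg at 14.7 ± 2.23 and Cd36 at 3.21 ± 0.62. In that order Lrpap1 and Vldlr overlapped between libraries and the other neighbours did not. With all exons of a gene as its length, Lrp1 (484) rather than Scarb1 (401) came first with DMSO for 48 hours and Lrp1 (822) rather than Lpl (579) with sorafenib for 7 days, so these leading places rest on the choice of length.

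By main transcript, with sorafenib for 48 hours the order per kilobase was Lpl (1680 ± 68), Lrp1 (1070 ± 45.3), Scarb1 (821 ± 37.6), Lipa (468 ± 91.8), Lrpap1 (432 ± 31.8), Vldlr (407 ± 85), Lrp8 (200 ± 7.31), Lipg (76.6 ± 13.4) and Cd36 (13.1 ± 1.76). Lipa, Lrpap1 and Vldlr overlapped there, and Lipa, Vldlr and Lipg include the lowered library, replicate 2, at 332.3, 281.4 and 57.02. In replicates 1, 3 and 4, Lipa had 501.7, 533.8 and 505.7 per kilobase, and Vldlr 433.8, 467.7 and 445.9. Lrpap1 had 384.6, 447.1 and 441.4 in these, below Vldlr in each, so the order of Lrpap1 and Vldlr turned on the lowered library. With DMSO for 7 days it was Scarb1 (1140 ± 48.7), Lpl (659 ± 26), Lrp1 (480 ± 11.7), Lrpap1 (420 ± 13.8), Lipa (277 ± 12.8), Lrp8 (129 ± 6.09), Lipg (123 ± 3.06), Vldlr (60.9 ± 2.79) and Cd36 (7.13 ± 2.23), with an overlap of Lrp8 and Lipg. By all exons Lrp1 led in these groups too, at 778 against 565 for Lpl with sorafenib and at 349 against 279 for Scarb1 with DMSO, and Vldlr stood above Scarb1 with sorafenib, at 330 against 201 at 48 hours and 304 against 142 at 7 days. The reelin-binding receptors changed places at 7 days, from Lrp8 above Vldlr with DMSO to Vldlr above Lrp8 with sorafenib, at a ratio of 1.79 per kilobase, 1.85 undivided and 2.38 with all exons.

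Of 94 further genes of lipid uptake in 7 lists, 81 could be tested. At 48 hours 35 were higher, 19 lower and 27 not called, and at 7 days 37, 26 and 18. Their median log2 fold change was 0.08 at 48 hours, with -0.05 over all genes, and 0.07 at 7 days, with 0.02. Without sorafenib 48 hours replicate 2 the 48-hour counts were 34, 21 and 26. By list, this moved the 48-hour counts of higher and lower genes to 2 and 4 for scavenger receptors, 4 and 5 for fatty acid uptake and 4 and 4 for lipolysis, and the 7-day counts of the adaptors to 3 and 5. In the lists below, all-gene medians of -0.05 and 0.02 and called shares of 54.6% and 56.8% are the background. The counts of called genes include some genes near the level of stray reads, such as G0s2, at 0.21 normalized counts with DMSO and 5.68 with sorafenib at 7 days.

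Among the 10 tested other LDL receptor family members, 7 were higher and 2 lower at 48 hours (median 0.45), and 5 higher and 4 lower at 7 days (median 0.25). Lrp3 rose from 86.05 ± 9.37 to 169.8 ± 18.8 normalized counts at 48 hours (0.97 ± 0.11) and by 0.58 ± 0.10 at 7 days. Lrp4, a receptor of the neuromuscular junction and of Wnt inhibition, rose by 0.73 ± 0.06 and 1.12 ± 0.07. Lrp2, megalin, went the other way, falling by 0.21 ± 0.05 (edgeR adjusted p = 0.003) at 48 hours and by 1.24 ± 0.05 (edgeR adjusted p = 8.47e-14) at 7 days, when it stood at 2001 ± 53.4 against 4741 ± 157 normalized counts.

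Of 10 tested adaptors and partners of these receptors, 6 were higher at 48 hours and 0 lower (median 0.11), and 2 were higher and 4 lower at 7 days (median -0.02). Cubn, cubilin, which is itself a receptor and the partner of megalin, rose by 1.31 ± 0.09 and 1.53 ± 0.08, to 337.5 ± 15.1 normalized counts at 7 days from 117.2 ± 8.53. The endocytic adaptor Dab2, on chromosome 15, had -0.13 ± 0.10 at 48 hours (edgeR adjusted p = 0.285, and 0.01 without the lowered library) and fell by 0.48 ± 0.10 at 7 days. Mylip, an E3 ligase that marks receptors of this family for degradation, had -0.05 ± 0.09 at 48 hours (edgeR adjusted p = 0.653) and fell by 0.33 ± 0.10 at 7 days.

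Of 10 tested scavenger receptors beside Scarb1 and Cd36, 3 were higher and 4 lower at each time (medians -0.21 and -0.13). The 3 higher at 7 days were all scarce, with Stab1 at 23.45, Stab2 at 12.4 and Scara3 at 9.105 normalized counts with sorafenib. Of the 4 lower, Olr1 (4.326) and Scara5 (1.32) were scarce there too. Scarb2, a lysosomal relative of Scarb1, fell by 0.39 ± 0.03 and 0.57 ± 0.03, to 2931 ± 67.3 from 4348 ± 46.8 normalized counts at 7 days. Colec12, a scavenger receptor of the collectin family on chromosome 18, fell by 0.70 ± 0.18 (-0.56 without the lowered library) and 0.75 ± 0.14. Cxcl16, a chemokine whose membrane form binds oxidized lipoprotein, rose by 0.51 ± 0.13 at 48 hours and had -0.20 ± 0.12 at 7 days (edgeR adjusted p = 0.171).

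The 14 tested regulators of lipases held 6 higher and 3 lower genes at 48 hours (median 0.04) and 7 and 3 at 7 days (median 0.01). Sel1l, needed for lipoprotein lipase to leave the endoplasmic reticulum, rose by 1.41 ± 0.03 and 0.90 ± 0.03, from 2446 ± 83.6 to 6482 ± 228 normalized counts at 48 hours. Pcsk6, a proprotein convertase, rose by 1.36 ± 0.05 and 0.76 ± 0.05. Angptl6, a secreted angiopoietin-like protein, had the largest change among the list genes with a mean of at least 100, rising by 3.55 ± 0.07 (edgeR adjusted p = 7.93e-19) and 4.30 ± 0.08 (edgeR adjusted p = 1.46e-19), from 78.18 ± 4.74 to 915.6 ± 43 normalized counts at 48 hours.

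Of 17 tested genes of fatty acid uptake and activation, 5 were higher and 4 lower at 48 hours (median -0.09), and 8 higher and 7 lower at 7 days (median 0). The gene at that 7-day median, Slc27a2, had 0 counts in both groups. The higher genes at 7 days included Acsl6 (0.21 with DMSO, 2.04 with sorafenib) and Fabp4 (0.72 and 3.19), near the level of stray reads. Cav1, the coat protein of caveolae, rose by 1.65 ± 0.05 and 1.21 ± 0.05, and Slc27a6, a fatty acid transporter on chromosome 18, by 1.79 ± 0.16 (1.95 without the lowered library) and 0.44 ± 0.17. Mfsd2a, a transporter of lysophosphatidylcholine, had -0.05 ± 0.06 at 48 hours (edgeR adjusted p = 0.472) and fell by 1.87 ± 0.06 at 7 days (edgeR adjusted p = 2.99e-16), to 295.3 ± 19 from 1080 ± 45.2 normalized counts.

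Lipolysis and lipid droplet genes numbered 12 tested, with 3 higher and 3 lower at 48 hours (median -0.00201) and 7 higher and 2 lower at 7 days (median 0.37). Lipe, hormone-sensitive lipase, fell by 1.57 ± 0.09 and 1.61 ± 0.11, while Abhd5, the activator of adipose triglyceride lipase, rose by 1.22 ± 0.05 and 0.63 ± 0.05. Mgll, monoglyceride lipase, rose by 3.20 ± 0.08 (edgeR adjusted p = 2.86e-17) and 2.67 ± 0.08 (edgeR adjusted p = 1e-16), from 72.39 ± 7.87 to 667.4 ± 41.6 normalized counts at 48 hours. The study named Mgll from these samples, so its direction is not independent evidence. Genes of lysosomal cholesterol exit were all 8 called at 48 hours, 5 higher and 3 lower (median 0.52), and 5 were higher and 2 lower at 7 days (median 0.49). Npc1, the cholesterol transporter that acts after Lipa, rose by 0.55 ± 0.09 (0.67 without the lowered library) and 0.90 ± 0.09. The sterol-binding Osbpl1a rose by 0.65 ± 0.08 (0.74 without it) and 1.12 ± 0.08, and Osbpl2 by 0.92 ± 0.04 and 1.19 ± 0.04.

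**Figure D3:**
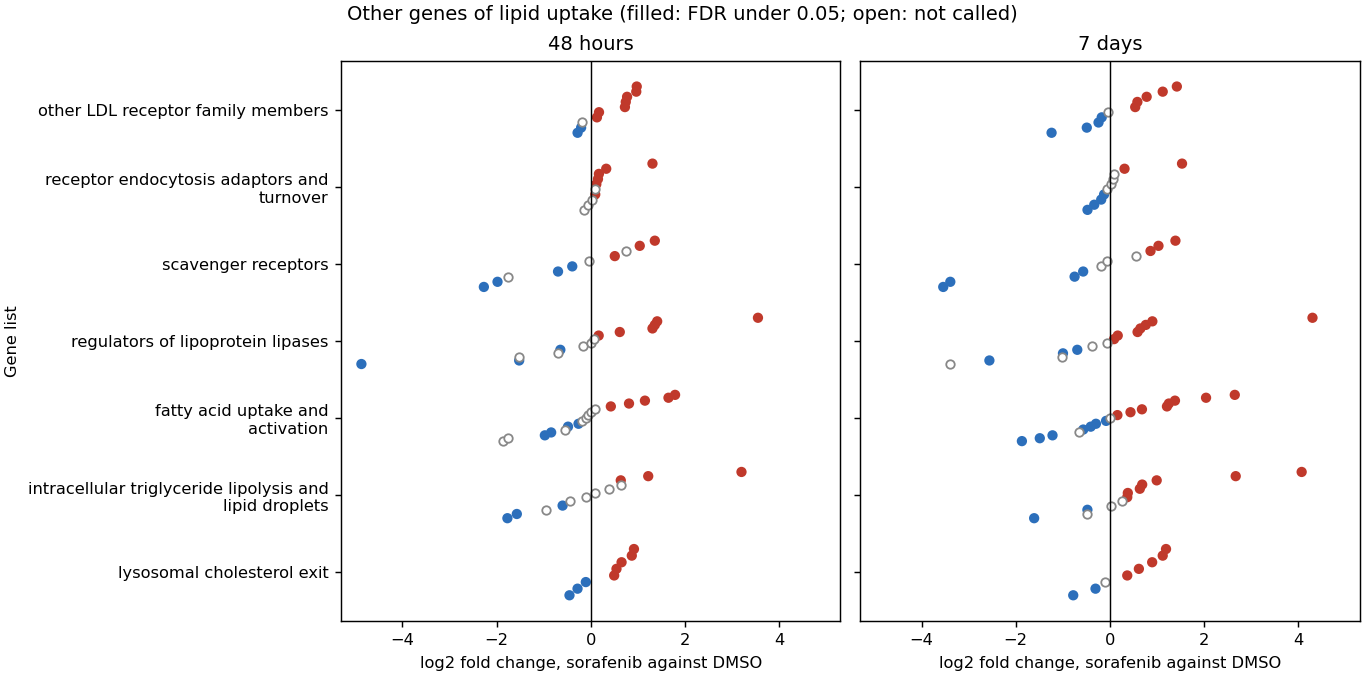
Log2 fold change of sorafenib against DMSO for the 81 tested genes of the 7 lists of lipid uptake genes at 48 hours and 7 days, 1 point per gene, red or blue where a gene was called higher or lower and open where it was not called. Most lists have called genes on both sides of 0, and the farthest to the right is Angptl6 at 7 days (4.30).

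The genes whose pattern over the 4 groups was most like that of a member were found by the root mean square distance of centred log2 group means, over 10645 genes. For Vldlr they were Stard5 (0.11), Amer2 (0.14) and Cd34 (0.17), where the median gene lay 1.2 away. Lpl was followed most closely by Tmem268 (0.02), Rrm2b (0.06) and Gm45095 (0.06), and Lipg by Slit3 (0.12), Adam33 (0.16) and Dpysl5 (0.23). Lrp8 lay nearest to Map4 (0.02), Myadm (0.05) and Abhd5 (0.06), Lrp1 to Bc1 (0.02), Ift172 (0.04) and Ptprg (0.04), and Scarb1 to Slc25a1 (0.02), Prr33 (0.03) and Mllt6 (0.03). Each likeness rests on 4 group means. Without sorafenib 48 hours replicate 2, Stard5 (0.0978), Amer2 (0.13) and Klf15 (0.145) were nearest to Vldlr, and Slit3 (0.13), Adam33 (0.20) and Dpysl5 (0.22) to Lipg. Of the 3 nearest genes, 2 were shared for Lrp8 and 1 each for Lrp1, Scarb1 and Lpl.

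**Figure D4:**
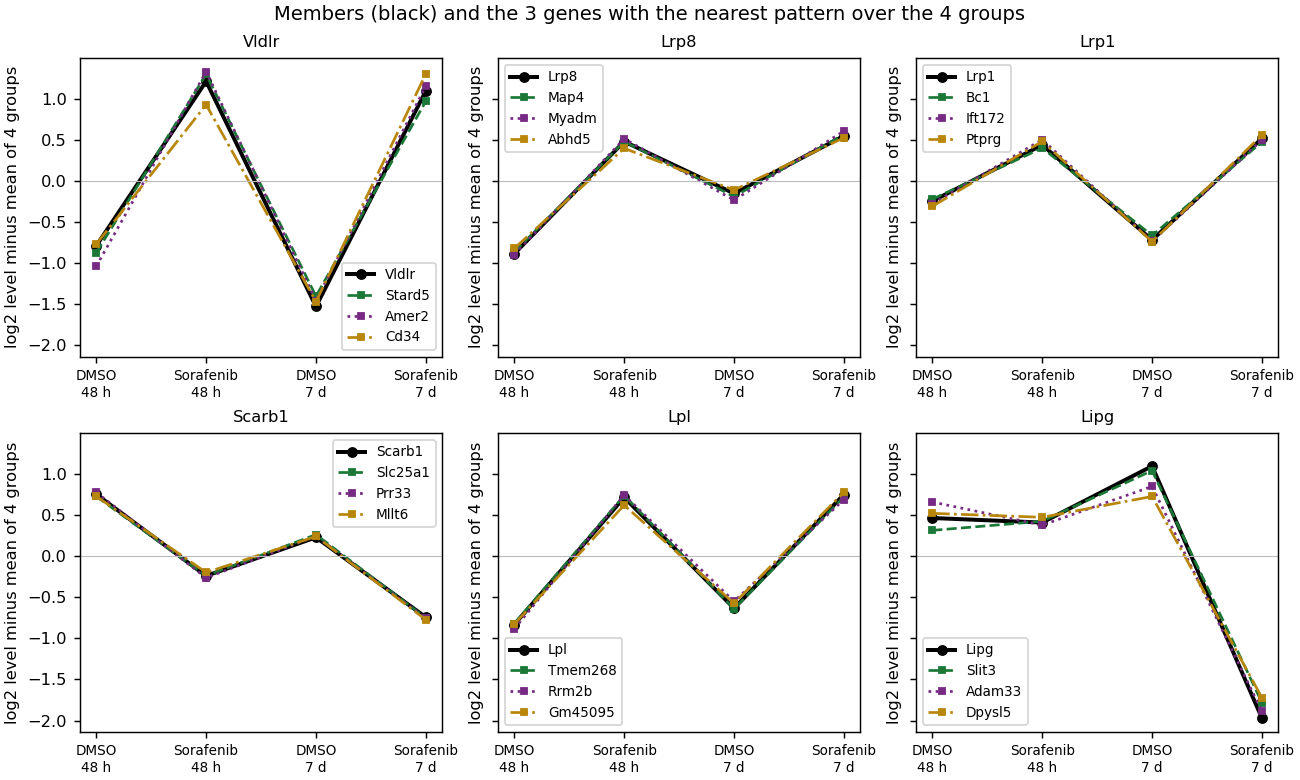
Centred log2 group means of 6 members and of the 3 genes nearest to each, over the 4 groups. The nearest gene lies 0.02 away for Lpl, Lrp1, Lrp8 and Scarb1, 0.11 for Vldlr and 0.12 for Lipg.

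Vldlr, Lrp1, Lrp8, Scarb1 and Lpl share 95 to 1271 bases of exon with annotated antisense genes, for which reads cannot be told apart unless the counting used strand, which the sources used here do not state.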

How the data were processed

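The authors prepared Illumina Stranded mRNA libraries, aligned reads to GRCm39 (STAR 2.7.1a) and counted them per gene (featureCounts 2.0.6), per the submitters' processing notes. The strand setting and annotation of the counting are not given in the sources used here. The deposited values are raw counts of 40840 genes in 16 libraries. Genes under 10 counts in total (20396) were removed. The remaining 20444 were tested with edgeR 4.0.16 in R 4.3.3 by the quasi-likelihood test after TMM, in 1 model with a coefficient per group, at a Benjamini-Hochberg adjusted p under 0.05. Normalized counts are counts divided by total times TMM factor, relative to the geometric mean. Errors are SE for log2 changes and SD for levels. The exact two-sided permutation test of 4 against 4 libraries cannot go below 0.0286.

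The members and lists were chosen with earlier results of these data known. Named list genes were the 3 with the largest absolute change among called genes of each list whose mean reached 100 normalized counts. Lengths and positions are from GENCODE vM39. DESeq2 1.42.0, other normalizations, filters, libraries and a replicate block were alternatives. The steps were tested on simulated data. Replicates differed by more than counting error, with a chi-square per gene of 1.58 to 71.6. Levels by all exons and nearest patterns without 1 library were added after the data were seen. Certain genes are left unreported.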

Additional observations from a re-analysis of the deposited data

Results flagged for a closer look

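Of 36 sets of 4 values, 1 for each tested member and group, 2 held a library that stood apart by Dixon's test, where chance alone marks about 5% of such sets. Lrp1 with sorafenib for 7 days had its highest library, replicate 3, at 17450 normalized counts, with a gap of 0.917 of the group's range to the next. Lipa with sorafenib for 48 hours had its lowest library, replicate 2, at 988.9 normalized counts, with a gap of 0.841 of the range. That library also had lowered counts for other genes on chromosomes 15 to 19.

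The response to sorafenib differed between 7 days and 48 hours, by the test of the difference in edgeR, for 6 members. The differences on the log2 scale were -3.01 for Lipg, -1.39 for Cd36, -0.66 for Lrp8, -0.17 for Lpl, 0.55 for Lrp1 and 0.62 for Vldlr. The values for Lipg and Cd36 go with a fall at 7 days and no call at 48 hours, and the others with a change in the same direction at both times.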

How the results depend on the processing

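Beside an added fold threshold, 23 refits were made of the 45 results on single members, and 31 kept their direction and side of the threshold in all of them. Where a change of at least 1 on the log2 scale was also required, the called genes were 3690 at 48 hours, 4202 at 7 days, 1965 for the difference between responses, 2242 for time in DMSO and 1727 for time in sorafenib, and the called members 3, 5, 2, 0 and 2. Leaving out 1 library gave 4 to 7 called members for time in sorafenib, the 7 without sorafenib 48 hours replicate 2, beside 7355 to 9047 called genes. The difference between responses of Lipa turned positive by total counts (0.04667), with at least 10 counts in every sample (0.01665) and in some fits without 1 library (-0.1768 to 0.04632). Lipg at 48 hours had 0.001101 without the filter and -0.1399 to 0.06661 without 1 library, and Lrpap1 over time in DMSO had -0.002039 by total counts. The cause was not tested. The Lipa call at 48 hours was lost in a fit of its 8 libraries (edgeR adjusted p = 0.125). Whether replicate numbers pair the samples was not settled. Same-numbered DMSO and sorafenib libraries had correlated deviations of -0.05 to 0.12, over 0.1 in 2 of 8 pairs, and 2 of 8 were closest to their own number. At 48 hours the lowered counts of sorafenib replicate 2 entered the deviations of its whole group, so these values cannot exclude pairing. With the replicate block, 10644, 11027 and 6987 genes and 6, 7 and 6 members were called at 48 hours, at 7 days and for the difference, Lipa losing its 7-day call (0.24, edgeR adjusted p = 0.0645). The difference could not be fitted in 8 libraries, and Cd36 has no value where every sample needs 10 counts.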
